A study of Rattus norvegicus with 18 samples.

Results

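The enzymes that build chondroitin sulfate chains were followed in cultured rat nucleus pulposus cells exposed to compounds that stabilise G-quadruplexes, folds that guanine-rich nucleic acids can form. The set is 10 genes (Xylt1, Xylt2, Csgalnact1, Csgalnact2, Chsy1, Chsy3, Chpf, Chpf2, Chst11 and Chst15) of 33898 in the count table. They were chosen by gene symbol, as a list of enzymes drawn up when fold changes between these same groups were already known. The values and whole-table p-values below therefore describe the genes and lend no support to the list. All 10 passed the filter on low counts, as did 14184 genes in all.

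The groups were PDS for 24 hours against PDS controls, Phen-DC3 for 24 hours against Phen-DC3 controls, and Braco-19 for 24 hours against controls whose titles name no compound, called plain controls here. The plain controls were paired with Braco-19 by elimination. Each of the 6 groups had 3 libraries, from cells of Sprague Dawley rats aged 8 weeks, released from disc tissue and grown in serum-containing medium. The labels give no dose, no vehicle and no number of animals or cultures, so p-values measure the spread between libraries, which may be technical. Library totals were 15715121 to 18369443 counts.

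Chondroitin sulfate is a sulfated sugar chain attached to core proteins such as aggrecan, and its negative charge draws water into the nucleus pulposus, the gelatinous core of the disc. Xylosyltransferases (Xylt1, Xylt2) start the chain by placing xylose on a serine of the core protein. N-acetylgalactosaminyltransferases (Csgalnact1, Csgalnact2) then commit the linker to chondroitin, synthases and polymerising factors (Chsy1, Chsy3, Chpf, Chpf2) extend it by alternating sugars, and sulfotransferases (Chst11, Chst15) sulfate it. These roles are known mainly from the human and mouse enzymes.

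Of 17 nucleus pulposus markers, 3 to 4 were at 0 counts in a group and 5 to 6 were below 1 CPM (counts scaled to a common library total). The notochordal genes Tbxt, Shh and Krt19 were at 0 in every group, and Acan, the aggrecan core protein, had group means of 0.14 to 2.85 CPM. Other markers of the list were detected, among them Pax1 at 76.1 to 111 CPM, Foxf1 at 35.1 to 44.1 CPM, Cd24 at 12.5 to 39.8 CPM, Cdh2 at 22.9 to 31.0 CPM, Col2a1 at 9.80 to 20.3 CPM and Krt8 at 7.19 to 15.5 CPM. Col1a1, a fibroblast-type collagen, had 1110 to 5270 CPM. The Braco-19 and plain control libraries stood apart from the other 12. Genes longer than 5000 bases took 23.3 to 25.4% of counts in the Braco-19 and plain control libraries, and 7.42 to 10.7% in the other 12. In bulk RNA, fewer cells of a type and less RNA per cell cannot be told apart.

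Per unit of gene length, Chpf was the most abundant of the 10 in all 6 groups. Its level averaged 121 ± 6.46 RPKM (CPM per kilobase of gene, SD, n = 3) with PDS and 106 ± 4.97 RPKM in PDS controls. It averaged 106 ± 5.31 RPKM with Phen-DC3 and 96.7 ± 4.76 RPKM in Phen-DC3 controls, and 88.0 ± 5.97 RPKM with Braco-19 and 76.2 ± 3.31 RPKM in plain controls. Xylt1 and Chst15 were the lowest in all groups, at group means of 0.564 to 4.29 RPKM and 1.34 to 1.71 RPKM. In PDS controls the other 7 genes lay between 12.4 RPKM (Chsy1) and 29.4 RPKM (Chpf2). There Chsy1 and Chsy3 (12.4 ± 0.528 and 12.5 ± 0.572 RPKM) did not differ beyond their spread, nor did Csgalnact1, Chst11 and Csgalnact2 (15.3 ± 1.77, 15.2 ± 0.816 and 16.4 ± 1.58 RPKM). Summed over the 10 genes, the level was 264 ± 7.01 RPKM with PDS and 228 ± 6.12 RPKM in PDS controls, 228 ± 5.68 RPKM with Phen-DC3 and 221 ± 7.43 RPKM in Phen-DC3 controls, and 270 ± 7.27 RPKM with Braco-19 and 271 ± 1.34 RPKM in plain controls.

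**Figure D1:**
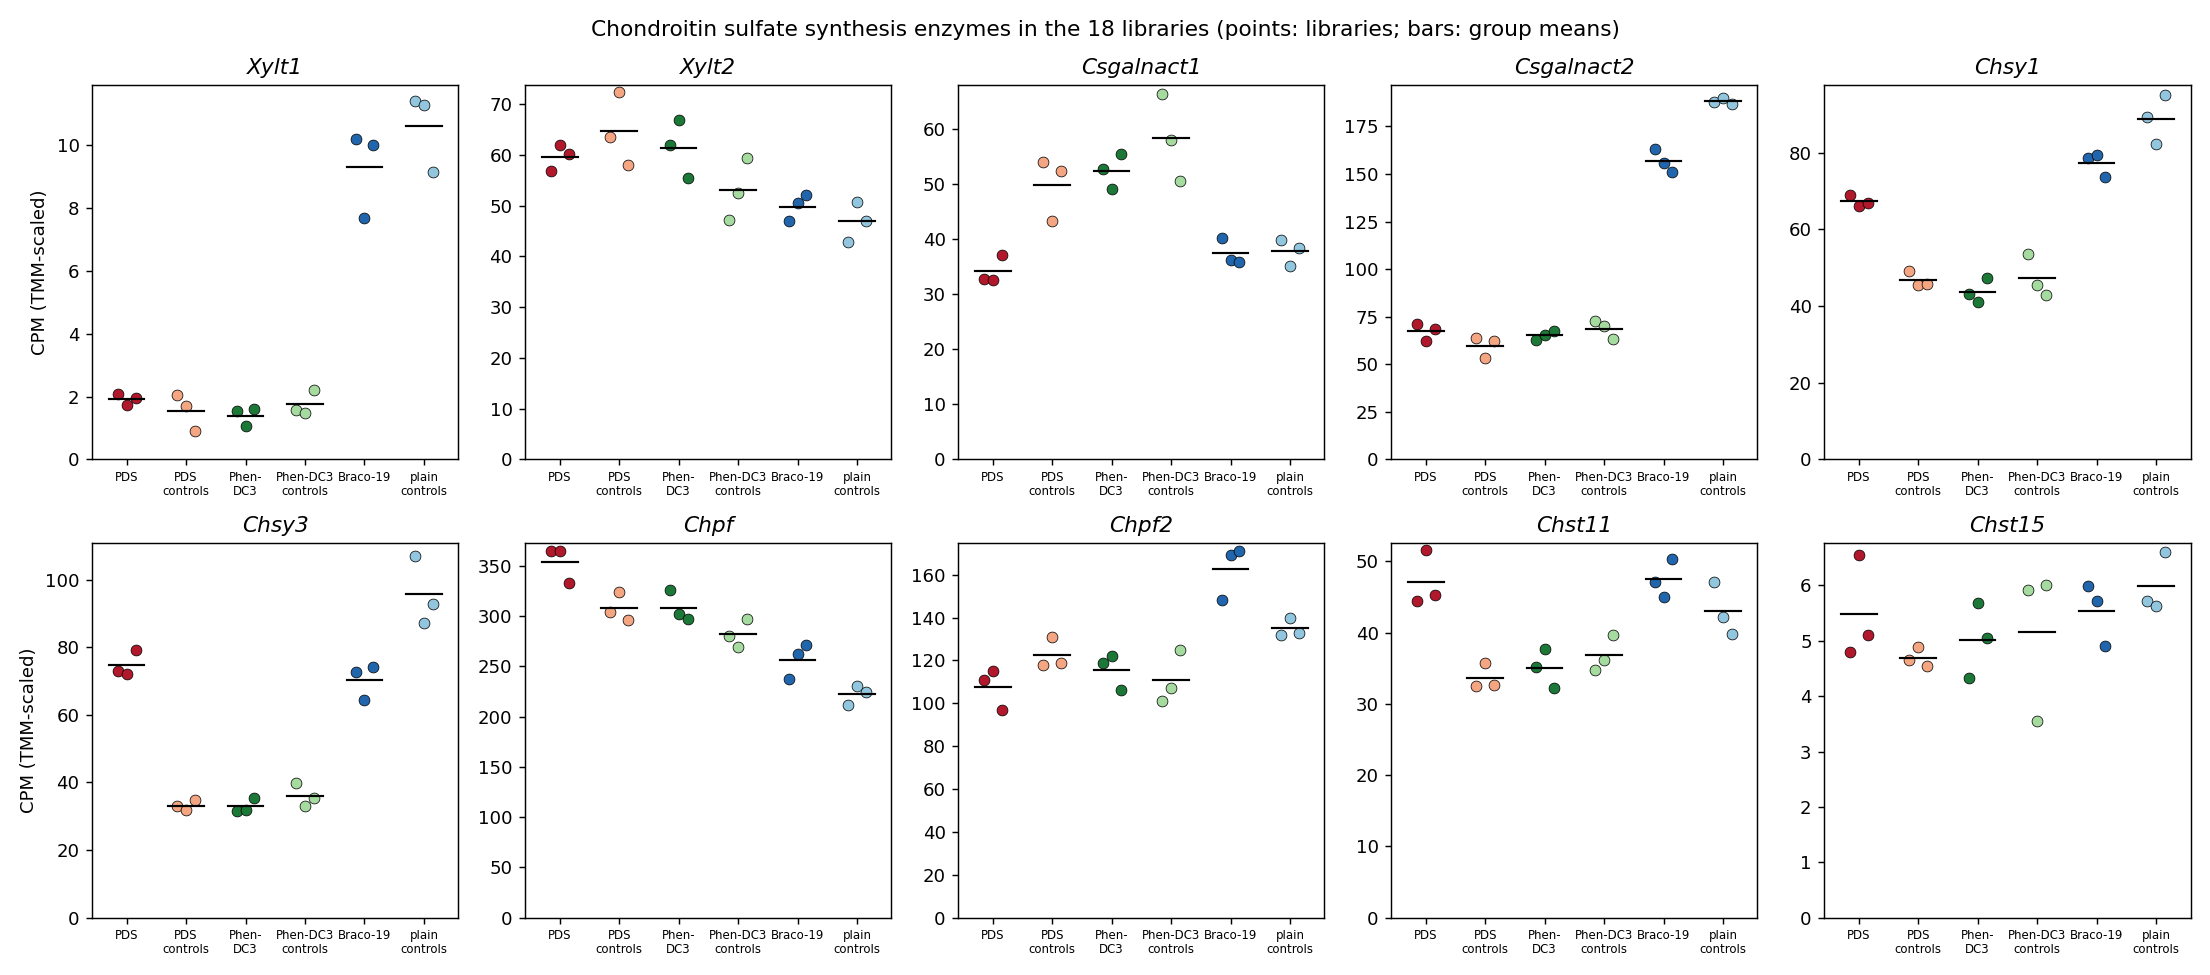
Level of each of the 10 genes in each library, in CPM on TMM-scaled library sizes (y axis, linear from 0), by group (x axis); points are libraries and bars are means of 3. Chsy3 stands at 72.2 to 79.3 CPM with PDS and 31.7 to 34.7 CPM in PDS controls, and Xylt1 and Csgalnact2 are higher in the Braco-19 and plain control libraries than in the other 12.

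With PDS, both chondroitin synthases and the sulfotransferase Chst11 rose, and the N-acetylgalactosaminyltransferase Csgalnact1 fell. Of the 10 genes, 3 rose, 1 fell and 6 were not called by edgeR's quasi-likelihood test at an adjusted p under 0.05. Over all tested genes, 8.09% were called, 5.13% higher and 2.96% lower. That background was 1148 genes, and 563 to 867 over the 6 left-out libraries. The median log2 fold change of the 10 was 0.21, and that of all tested genes 0.02.

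Chsy3, a synthase that adds both sugars of the repeating unit, moved most. It had 73.1, 72.2 and 79.3 CPM in PDS libraries, against 33.1, 31.7 and 34.7 CPM in PDS controls. Every PDS library was far above every control. The rise was 2.26-fold (log2 1.18 ± 0.09 SE, adjusted p = 1e-07), and Chsy3 stood at rank 5 of the 14184 genes by p. Its gene lies on chromosome 18, 54243949 to 54496585, plus strand (ENSRNOG00000050152), by the coordinates of the deposited table, whose genome build no source used here gives.

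Chsy1, the other synthase, had 68.9, 66.2 and 67.0 CPM in PDS libraries, against 49.1, 45.6 and 45.7 CPM in PDS controls. The groups did not overlap, and the rise was 1.44-fold (log2 0.53 ± 0.08, adjusted p = 0.00046). Chst11, which sulfates N-acetylgalactosamine in the chain, had 44.4, 51.6 and 45.3 CPM with PDS, against 32.5, 35.7 and 32.6 CPM in PDS controls. It too was separated between groups and rose 1.40-fold (log2 0.49 ± 0.09, adjusted p = 0.0017). Chsy1 is ENSRNOG00000012698 on chromosome 1, 127010588 to 127071570, and Chst11 is ENSRNOG00000008885 on chromosome 7, 26645422 to 26859716.

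Promoters of the 3 genes that rose with PDS are shown because the compounds are ligands of guanine quadruplexes. The sequences are RefSeq's, build GRCr8, the 250 bases before the gene start, 5′ to 3′ on the gene's strand. Capitals mark matches to a quadruplex motif, 4 runs of at least 3 G separated by loops of 1 to 7 bases of any kind, searched on both strands, where the other strand reads as runs of C.
Chsy3 (chr18:54842010-54842259, plus): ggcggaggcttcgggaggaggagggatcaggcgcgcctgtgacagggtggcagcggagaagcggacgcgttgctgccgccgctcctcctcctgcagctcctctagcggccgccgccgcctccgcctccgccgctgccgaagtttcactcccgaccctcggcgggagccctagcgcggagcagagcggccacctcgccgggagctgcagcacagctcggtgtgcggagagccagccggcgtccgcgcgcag
Chsy1 (chr1:129099838-129100087, plus): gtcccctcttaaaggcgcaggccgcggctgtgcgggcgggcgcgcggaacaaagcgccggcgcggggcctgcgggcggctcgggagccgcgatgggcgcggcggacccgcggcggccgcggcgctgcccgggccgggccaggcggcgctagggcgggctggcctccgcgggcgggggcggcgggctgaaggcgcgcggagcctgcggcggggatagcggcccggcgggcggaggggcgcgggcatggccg
Chst11 (chr7:22630442-22630691, minus): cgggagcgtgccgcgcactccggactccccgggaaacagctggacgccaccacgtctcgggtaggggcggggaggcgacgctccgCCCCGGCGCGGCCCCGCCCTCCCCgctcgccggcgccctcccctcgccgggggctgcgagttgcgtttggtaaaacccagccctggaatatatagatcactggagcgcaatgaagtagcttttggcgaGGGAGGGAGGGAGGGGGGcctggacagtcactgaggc

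Of the 8 members with a promoter in that table, Chst11 (both strands) and Xylt2 (the other strand) held the motif. Csgalnact1, which fell with PDS, and Csgalnact2 had no promoter there and were not searched. Across 33469 promoters of that length, 14.9% held it on either strand. The Chsy1 window was 84.8% G and C and held 6 GC boxes (GGGCGG on either strand, which can overlap the G runs), and the Chsy3 window held none of them. At least 1 GC box was in 4 of the 8 windows and in 30.5% of all promoters. A match describes letters and does not show a folded quadruplex, and no match was found in these windows for Chsy1 and Chsy3.

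Csgalnact1, an enzyme that adds the first N-acetylgalactosamine, had 32.8, 32.7 and 37.1 CPM in PDS libraries, against 54.1, 43.3 and 52.4 CPM in PDS controls. All PDS libraries were below all controls, with a log2 change of -0.55 ± 0.10 (adjusted p = 0.002). The gene is ENSRNOG00000013024 on chromosome 16, 22979444 to 23074798. Its paralogue Csgalnact2 was not called (67.4 ± 4.45 CPM with PDS and 59.7 ± 5.74 CPM in PDS controls, log2 0.17 ± 0.08, adjusted p = 0.18), and the groups overlapped.

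The polymerising factors, which work as partners of the synthases, were not called. Chpf averaged 354 ± 18.9 CPM with PDS and 308 ± 14.5 CPM in PDS controls (log2 0.20 ± 0.07, adjusted p = 0.073). Chpf2 averaged 107 ± 9.36 CPM with PDS and 123 ± 6.97 CPM in PDS controls (log2 -0.19 ± 0.09, adjusted p = 0.20). Both were nevertheless separated between groups, Chpf upward and Chpf2 downward. Groups were separated in 6 of the 10 genes and in 33.3% of all tested genes. Xylt1, Xylt2 and Chst15, the last of which adds a further sulfate to sulfated N-acetylgalactosamine, overlapped between groups (adjusted p = 0.51 each). Xylt1 had only 15 to 35 counts a library in these groups. Its 95% interval of -0.25 to 0.85 on the log2 scale does not exclude changes within that range.

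The 4 PDS calls held with each of the 6 libraries left out in turn. Against all 9 control libraries pooled, none of the 4 was called by edgeR, with Chsy3 at 0.45 (adjusted p = 0.53) and Chsy1 at 0.14 (adjusted p = 0.75). That pooling mixes control groups that differ strongly in these genes, as given below. The 6 bone markers (3 below 1 CPM) had a summed level of 5080 to 5760 CPM with PDS and 3180 to 3910 CPM in PDS controls, mostly Spp1. The 7 smooth-muscle and pericyte markers (1 below 1 CPM) had a summed level of 2070 to 2260 CPM with PDS and 1560 to 1710 CPM in PDS controls. That difference was mostly Tagln, at 1830 CPM with PDS and 1300 CPM in PDS controls, beside Acta2 at 290 CPM with PDS and 283 CPM in PDS controls. Of 7 endothelial markers 6 were below 1 CPM in both groups, Cdh5 at 0, and Egfl7 had 20.1 CPM with PDS and 28.5 CPM in PDS controls. Of 9 leukocyte markers 7 were below 1 CPM in both groups, Ptprc at 0, and Cd14 had 116 CPM with PDS and 110 CPM in PDS controls. The 17 nucleus pulposus markers summed to 265 to 271 CPM with PDS and 268 to 289 CPM in PDS controls, with members moving both ways. Col2a1 (9.80 CPM with PDS and 17.3 CPM in PDS controls), Cd24, Krt8 and Fmod were lower. Cdh2 (31.0 CPM with PDS and 23.5 CPM in PDS controls) and Ca12 were higher. The 10 annulus or fibroblast markers summed to 2970 to 3200 CPM with PDS and 3040 to 3460 CPM in PDS controls. The part of all these markers in the change of the 4 genes was not tested.

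**Figure D2:**
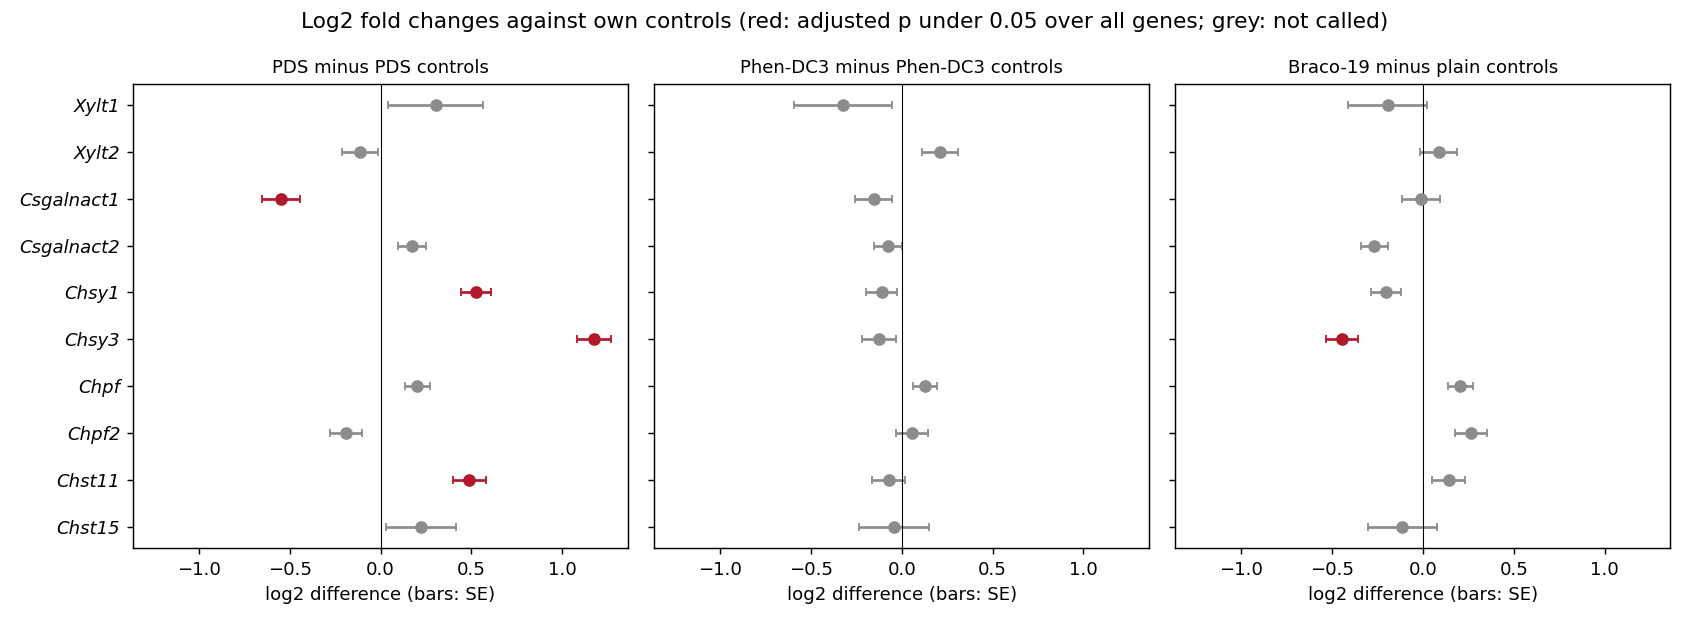
Log2 fold changes (x axis) of the 10 genes (rows) for each compound against its own controls, with standard errors from the fit over 18 libraries; red marks an adjusted p under 0.05 over all genes. The 4 red points under PDS are Chsy3 (1.18), Chsy1 (0.53), Chst11 (0.49) and Csgalnact1 (-0.55), there is 1 under Braco-19 (Chsy3, -0.44) and 0 under Phen-DC3.

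Under Phen-DC3 no enzyme of the set was called. By edgeR 0 of the 10 passed, with 1 at an unadjusted p under 0.05, and DESeq2 and limma voom called 0, where edgeR called 8.01% of all tested genes, 2.19% higher and 5.82% lower. That background was unstable: its 1136 genes became 0 without Phen-DC3 replicate 1, 3315 without Phen-DC3 control replicate 3, and 3 to 2653 without each of the other 4 libraries. It was 47 after correction for gene length and 1 in a fit of these 6 libraries alone. Chsy3 had 31.6, 31.8 and 35.5 CPM with Phen-DC3, against 39.7, 32.9 and 35.3 CPM in Phen-DC3 controls. Chsy1 had 43.1, 41.0 and 47.3 CPM with Phen-DC3, against 53.6, 45.5 and 42.8 CPM in Phen-DC3 controls. Both overlapped between groups, and their 95% intervals were -0.32 to 0.07 and -0.29 to 0.07 on the log2 scale, which do not reach their rise with PDS.

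Xylt2, the more abundant xylosyltransferase, had the smallest p under Phen-DC3. It had 61.9, 66.9 and 55.4 CPM with Phen-DC3, against 47.1, 52.5 and 59.4 CPM in Phen-DC3 controls (log2 0.21 ± 0.10, adjusted p = 0.16). The groups overlapped through control replicate 3. Without that library Xylt2 was called (log2 0.30, adjusted p = 0.041). Chpf was the only gene of the 10 whose groups were apart (326, 302 and 297 CPM with Phen-DC3, against 280, 269 and 297 CPM in Phen-DC3 controls). The lowest treated and the highest control library differed by less than the rounding, and a separation of this kind held for 22.1% of all tested genes. In this comparison fold changes fell with gene length. Genes over 5000 bases had a median log2 change of -0.31, those under 1000 bases 0.21, and the 4724 genes within the members' lengths, 2208 to 4162 bases, -0.06, beside -0.07 for the 10 members.

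Under Braco-19, Chsy3 fell, and it was the only gene of the 10 called, where 0.275% of all tested genes were called and 0.106% were called lower. The 39 genes behind that share became 1 without Braco-19 replicate 3, 153 without Braco-19 replicate 1 and 3 to 20 without each of the other 4 libraries, and were 781 in a fit of these 6 libraries alone and 359 by DESeq2. Chsy3 had 72.6, 64.4 and 74.1 CPM with Braco-19, against 107, 87.3 and 92.8 CPM in plain controls. All 3 treated libraries were below all 3 controls (log2 -0.44 ± 0.09, adjusted p = 0.034). The call was lost without plain control replicate 1 (adjusted p = 0.19) or 3 (adjusted p = 0.11) and without Braco-19 replicate 2 (adjusted p = 0.23) or 3 (adjusted p = 0.11), with log2 changes of -0.51 to -0.36 over the 6 left-out libraries. Against all 9 controls pooled its log2 change was 0.36 (adjusted p = 0.45).

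Csgalnact2 and Chsy1 were also below their controls in all libraries without being called. Csgalnact2 had 163, 156 and 151 CPM with Braco-19, against 188, 190.0 and 187 CPM in plain controls (log2 -0.27 ± 0.07, adjusted p = 0.12). Chsy1 averaged 77.2 ± 3.08 CPM with Braco-19 and 88.9 ± 6.33 CPM in plain controls (log2 -0.20 ± 0.08, adjusted p = 0.21). Chpf2 (162 ± 12.8 CPM with Braco-19 and 135 ± 4.18 CPM in plain controls) and Chpf (257 ± 17.4 CPM with Braco-19 and 222 ± 9.64 CPM in plain controls) lay above their controls in all libraries, each with adjusted p = 0.15. Thus 5 of the 10 genes were separated, where 28.1% of all tested genes were. In a fit of these 6 libraries alone, Csgalnact2 (adjusted p = 0.027) and Chpf2 (adjusted p = 0.038) were called beside Chsy3.

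The compounds were compared as given, since no dose is in the labels, by testing the difference of their effects in the same fit (3 pairs, p adjusted over all genes within each pair). For the synthases the PDS effect stood apart from both others. Both of these comparisons use the same PDS and PDS control libraries, so they are not independent. The PDS effect on Chsy3 exceeded that of Phen-DC3 by 1.30 ± 0.13 on the log2 scale (adjusted p = 1e-05) and that of Braco-19 by 1.62 ± 0.13 (adjusted p = 3e-07). For Chsy1 the differences were 0.64 ± 0.12 (adjusted p = 0.0024) and 0.73 ± 0.12 (adjusted p = 0.00077). Chst11 differed from Phen-DC3 by 0.56 ± 0.13 (adjusted p = 0.0071) and was not called against Braco-19 (0.34, 95% interval 0.08 to 0.61, adjusted p = 0.072).

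Against Braco-19 the PDS effect was also higher for Csgalnact2 (0.44 ± 0.11, adjusted p = 0.012) and lower for Csgalnact1 (-0.54 ± 0.15, adjusted p = 0.022) and Chpf2 (-0.46 ± 0.12, adjusted p = 0.021). Csgalnact1 against Phen-DC3 was not called (-0.39, 95% interval -0.70 to -0.09, adjusted p = 0.060). In all, 3 of the 10 genes differed between PDS and Phen-DC3 and 5 between PDS and Braco-19, where 20.2% (12.4% higher, 7.76% lower) and 14% (7.28% higher, 6.75% lower) of all tested genes differed. Without Phen-DC3 control replicate 3 the first count was 6, where 4218 of 14439 tested genes were called. It was also 6 once every library had been corrected for gene length, where 1890 of 14184 were called. Between Phen-DC3 and Braco-19, 0 of the 10 differed by edgeR (1 at an unadjusted p under 0.05, Chsy3, 0.32, 95% interval 0.05 to 0.59), and 0 by DESeq2 or limma voom, where 0.0494% of all tested genes (0.0141% higher, 0.0353% lower) did by edgeR.

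**Figure D3:**
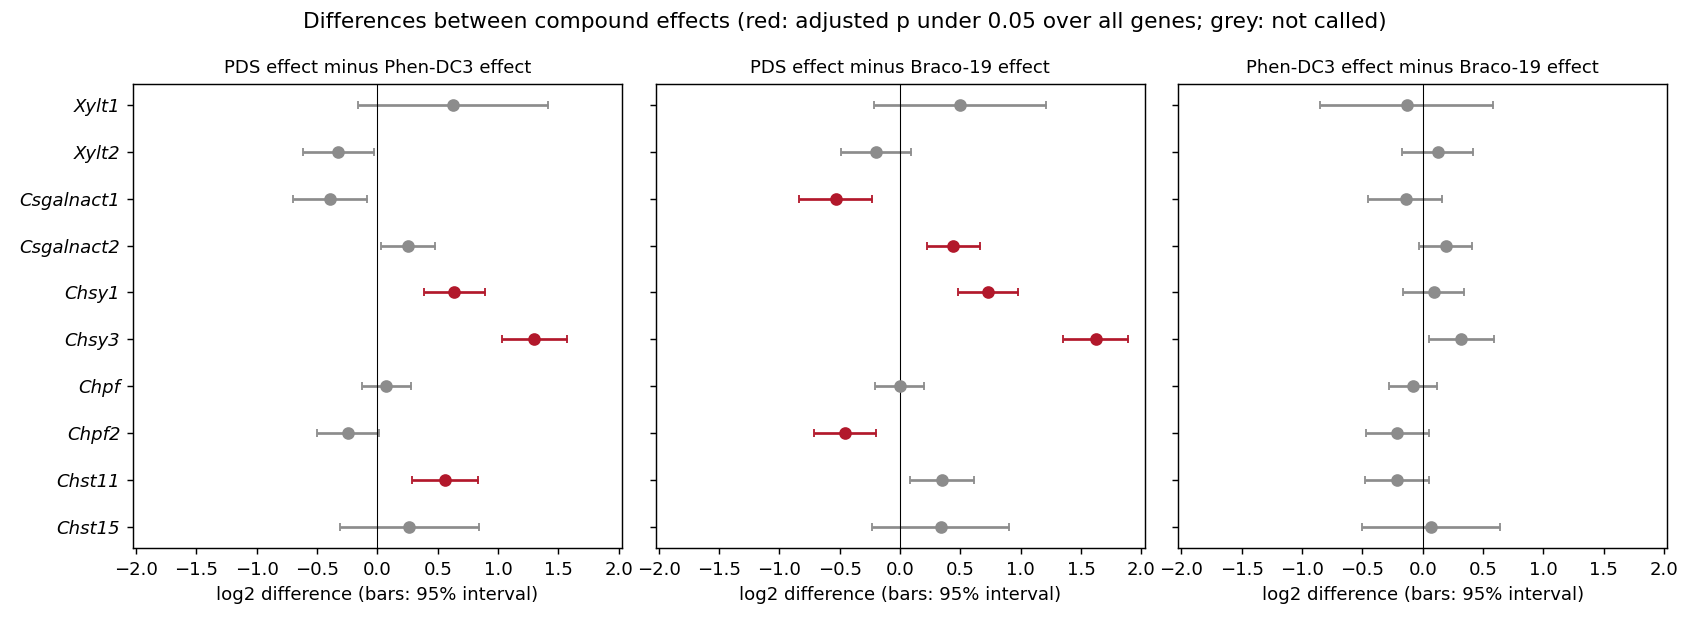
Effect of the compound named first minus that of another on the log2 scale (x axis) for the 10 genes (rows), with 95% intervals; red marks an adjusted p under 0.05 over all genes. There are 3 red points for PDS minus Phen-DC3, 5 for PDS minus Braco-19 and 0 for Phen-DC3 minus Braco-19, Chsy3 has the highest value in each panel, and Xylt1 the widest interval.

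Set against plain controls, PDS controls had 3 of the 10 genes higher and 5 lower, and Phen-DC3 controls 2 higher and 6 lower. These comparisons share the plain controls, and 73.3% (35.6% higher, 37.7% lower) and 69.5% (34.6% higher, 34.9% lower) of all tested genes were called in them. A share of 8 in 10 is therefore near the background. Likewise 10 and 8 of the 10 genes were separated, against 76.9% and 71.2% of all tested genes. Xylt1 had 2.05, 1.71 and 0.898 CPM in PDS controls and 1.56, 1.47 and 2.22 CPM in Phen-DC3 controls, against 11.4, 11.3 and 9.16 CPM in plain controls. The plain controls were 6.83-fold and 6.05-fold higher (adjusted p = 2.7e-09 for PDS controls and 8.3e-09 for Phen-DC3 controls), on 15 to 38 counts a library in the lower groups.

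Csgalnact2 was 63.9, 53.2 and 62.0 CPM in PDS controls and 72.9, 69.9 and 63.3 CPM in Phen-DC3 controls, against 188, 190.0 and 187 CPM in plain controls (log2 -1.66 ± 0.08 for PDS controls and -1.45 ± 0.08 for Phen-DC3 controls). Chsy3 was lower by a similar amount (log2 -1.53 ± 0.09 and -1.41 ± 0.09), and Chsy1 by less (-0.93 ± 0.08 and -0.91 ± 0.08). Chpf (0.47 ± 0.07 and 0.34 ± 0.07) and Csgalnact1 (0.40 ± 0.10 and 0.63 ± 0.10) were higher in PDS controls and in Phen-DC3 controls than in plain controls. Xylt2 was called higher in PDS controls (0.46 ± 0.10, adjusted p = 3e-04) and was not called in Phen-DC3 controls (0.18 ± 0.10, adjusted p = 0.12). In Phen-DC3 controls it was nevertheless called higher under 4 of 16 alternative settings, with log2 values of 0.09 to 0.48 over the 16. The direct comparison of those 2 control groups did not call Xylt2 (0.28 ± 0.10, adjusted p = 0.084). Chst11 was called lower in PDS controls (-0.36 ± 0.09, adjusted p = 0.0015) and in Phen-DC3 controls (-0.22 ± 0.09, adjusted p = 0.034). The second of these calls was lost under 7 of 16 alternative settings, with log2 values of -0.34 to -0.11 over the 16. Among the 7 were fits without Phen-DC3 control replicate 1 (adjusted p = 0.12) or 2 (adjusted p = 0.15). Fits without plain control replicate 1 (adjusted p = 0.17) or 2 (adjusted p = 0.052) also lost it. Chst15 was called in neither (-0.35 ± 0.19 and -0.21 ± 0.19).

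Gene length moved with these values. Over all genes longer than 5000 bases the median log2 difference was -1.34 for PDS controls and -1.09 for Phen-DC3 controls, and under 1000 bases it was 0.80 and 0.67. Within the members' lengths, 2208 to 4162 bases, it was -0.21 and -0.15, beside -0.35 and -0.25 for the 10 members. With every library corrected for gene length, Xylt1 stood at -2.75 and -2.60, Chsy3 at -1.43 and -1.35, Csgalnact2 at -1.18 and -1.07, and Chsy1 at -0.41 and -0.49, all still called. Chpf2 changed direction, at 0.52 (adjusted p = 0.00018) in PDS controls and 0.26 (adjusted p = 0.037) in Phen-DC3 controls, against -0.14 and -0.28 before.

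Marker levels differed along the same split. The 9 leukocyte markers (7 below 1 CPM) summed to 108 to 114 CPM in PDS controls and 95.4 to 107 CPM in Phen-DC3 controls, against 34.4 to 42.4 CPM in plain controls. Nearly all of this was Cd14, while Cd68 was at 1.07 CPM in PDS controls and 1.15 CPM in Phen-DC3 controls, against 2.57 CPM in plain controls. The 7 smooth-muscle and pericyte markers summed to 1560 to 1710 CPM in PDS controls and 1380 to 1630 CPM in Phen-DC3 controls, against 454 to 668 CPM in plain controls. Tagln and Acta2 made up most of that sum, and Myh11 was at 6.38 CPM in PDS controls and 8.51 CPM in Phen-DC3 controls, against 9.07 CPM in plain controls. The summed level of the 10 annulus or fibroblast markers in the table went the other way. It was 3040 to 3460 CPM in PDS controls and 3360 to 3500 CPM in Phen-DC3 controls, against 6470 to 7820 CPM in plain controls. That difference was mostly Col1a1, at 1360 and 1410 CPM against 4850 CPM. By mean, Col3a1, Col5a1, Pdgfra and Mkx were also lower in both control groups. Thy1 (935 and 798 against 559 CPM) and Scx (108 and 83.5 against 47.4 CPM) were higher in both. Lum and Dcn were higher in Phen-DC3 controls. The 17 nucleus pulposus markers went both ways. Among them Acan (0.18 and 0.14 against 2.85 CPM), Sox9, Bmpr1b and Pax1 were lower in both control groups. Cd24 (37.3 and 39.8 against 13.7 CPM), Krt8, Nog and Fmod were higher in both. Their sums were 268 to 289 and 291 to 307 CPM, against 312 to 322 CPM in plain controls. The 6 bone markers, mostly Spp1, summed to 3180 to 3910 and 3800 to 4920 CPM, against 5780 to 7950 CPM. The part of these markers in the enzyme differences was not tested. No label names a batch, so a batch and the control group cannot be told apart.

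**Figure D4:**
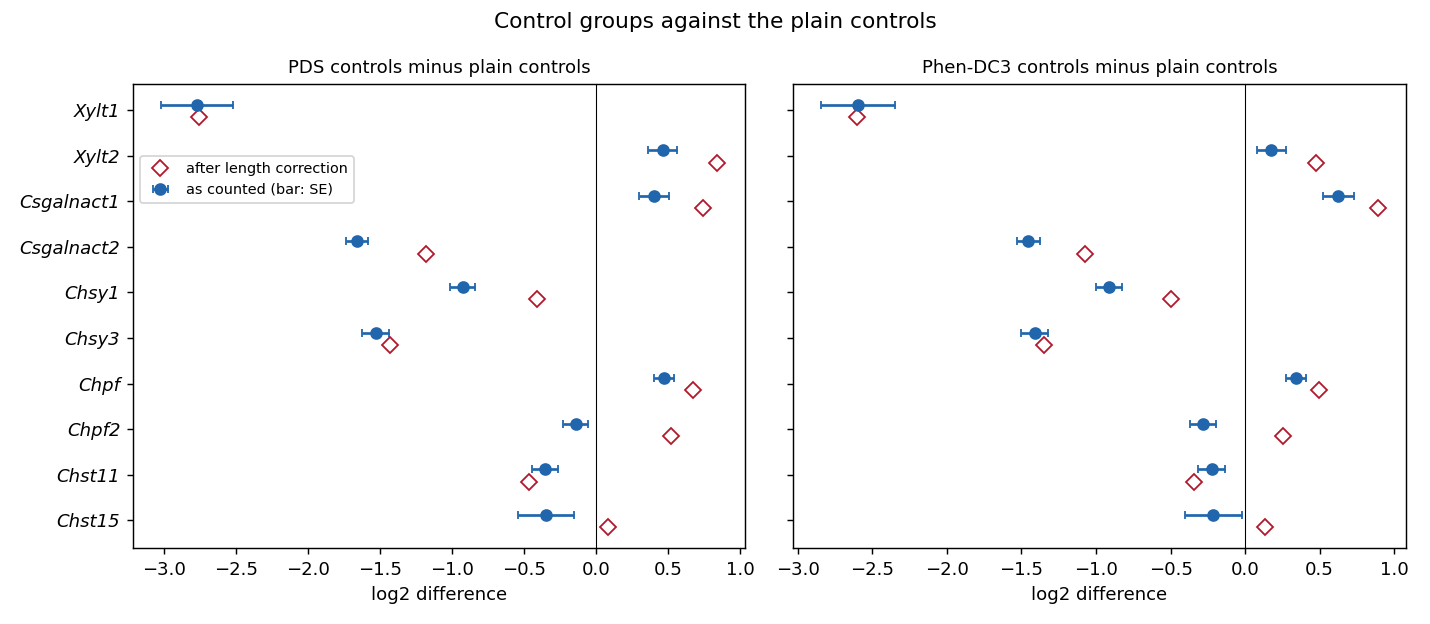
Log2 differences (x axis) of the 10 genes (rows) for PDS controls and Phen-DC3 controls, each minus plain controls; filled circles are the values as counted with SE, open diamonds those after correction for the length trend. In PDS controls Xylt1 lies at -2.77 as counted and at -2.75 after correction, while Chpf2 crosses 0.

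Between PDS controls and Phen-DC3 controls no enzyme was called. By edgeR 0 of the 10 genes passed, 3 at an unadjusted p under 0.05, where 6.09% of all tested genes were called (1.59% higher, 4.5% lower). The 864 genes behind that share became 0 without Phen-DC3 control replicate 2, 2740 without Phen-DC3 control replicate 3, 9 without PDS control replicate 2, and 37 to 935 without each of the other 3 libraries, and were 3 in a fit of these groups alone. DESeq2 called 1 and limma voom 0. The log2 differences ran from -0.22 to 0.28, and no gene of the 10 was separated between the groups, against 23.8% of all tested genes. Without Phen-DC3 control replicate 3, 3 genes were called.

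Ratios of per-length levels within each library are given as a description for pairs of related enzymes. The pairs share a step or act together, except Chst15 and Chst11, which add different sulfates. Csgalnact1 to Csgalnact2 was 0.515, 0.585 and 0.603 with PDS, against 0.944, 0.910 and 0.943 in PDS controls. With Braco-19 it was 0.276, 0.260 and 0.266, against 0.236, 0.206 and 0.230 in plain controls. Chsy3 to Chsy1 was 1.57 ± 0.0899 (SD, n = 3) with PDS and 1.00 ± 0.0637 in PDS controls, 1.07 ± 0.029 with Phen-DC3 and 1.08 ± 0.0753 in Phen-DC3 controls, and 1.29 ± 0.138 with Braco-19 and 1.52 ± 0.157 in plain controls. Xylt1 to Xylt2 was 0.254 ± 0.0443 with Braco-19 and 0.309 ± 0.0488 in plain controls, and its group means were 0.0314 to 0.0444 in the other 4 groups. The Chpf2 to Chpf ratio was 0.212 ± 0.00807 with PDS and 0.279 ± 0.00488 in PDS controls. It was 0.263 ± 0.0182 with Phen-DC3 and 0.276 ± 0.0211 in Phen-DC3 controls. With Braco-19 it was 0.443 ± 0.00745, and in plain controls 0.426 ± 0.0104, both above the other 4 groups.

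**Figure D5:**
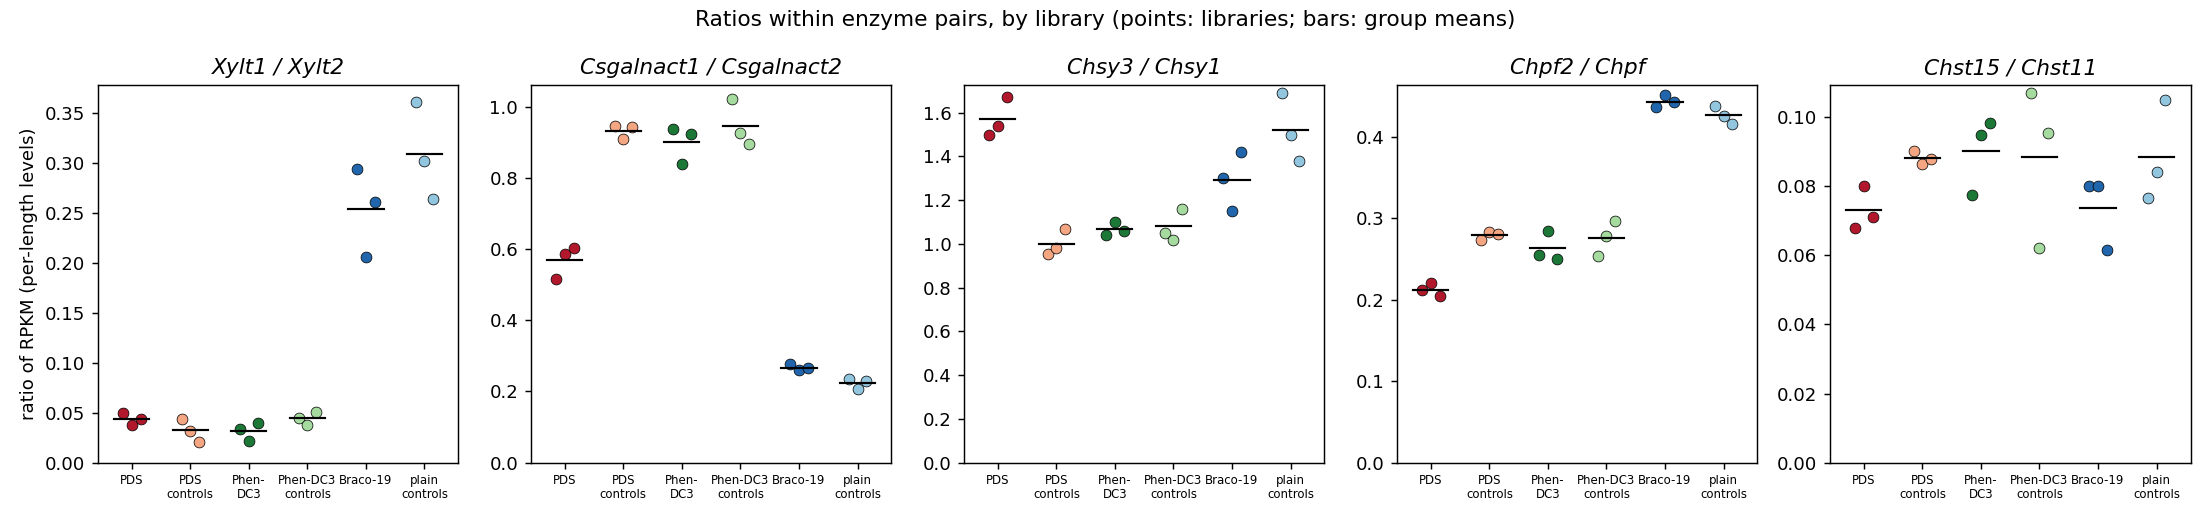
Ratio of per-length levels (RPKM, y axis, linear from 0) within 5 enzyme pairs, by group (x axis); points are libraries and bars are means of 3. The Csgalnact1 to Csgalnact2 ratio lies at 0.515 to 0.603 with PDS, against 0.910 to 0.944 in PDS controls, and Xylt1 to Xylt2 is high in the Braco-19 and plain control libraries alone.

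Other genes of the pathway were counted in lists under PDS, where 5.13% of all tested genes were called higher and 2.96% lower. None of the 5 other linkage-region enzymes was called by edgeR (2 at an unadjusted p under 0.05; 1 by DESeq2, 0 by limma voom), and none of 6 other tested sulfotransferases and epimerases of chondroitin and dermatan sulfate was (0 at an unadjusted p under 0.05, and 0 by either other tool). Of 19 genes for sugar and sulfate donors and their transport, 2 rose, 0 fell and 17 were not called. Gfpt2, an enzyme at the entry of hexosamine synthesis, averaged 6.90 ± 0.96 CPM with PDS and 3.39 ± 0.194 CPM in PDS controls (log2 1.03 ± 0.24, adjusted p = 0.011). Uap1, which makes UDP-N-acetylhexosamines, averaged 161 ± 6.60 CPM with PDS and 129 ± 6.65 CPM in PDS controls (log2 0.32 ± 0.07, adjusted p = 0.0096). The list's median log2 change was 0.02, that of all tested genes.

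Heparan sulfate is built on the same linker. Under PDS, 2 of 16 tested genes of its synthesis rose, 1 fell and 13 did not pass, beside the same 5.13% higher and 2.96% lower over all tested genes. The sulfotransferase gene Hs6st1 had a log2 change of -0.46 ± 0.10 (45.3 ± 2.14 CPM with PDS and 62.1 ± 2.99 CPM in PDS controls, adjusted p = 0.0045). Extl3, a glycosyltransferase that starts heparan sulfate chains, rose by 0.27 ± 0.08 (adjusted p = 0.040), and Ndst3, a deacetylase and sulfotransferase, by 0.76 ± 0.23 (adjusted p = 0.046). A list of 12 genes covered the breakdown of chondroitin sulfate and related chains, and included the sulfatase activator Sumf1. Of these, 1 rose (Arsb, arylsulfatase B, 0.25 ± 0.07, adjusted p = 0.022), 0 fell and 11 were not called.

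Among 18 tested core proteins that can carry chondroitin sulfate, 2 were called higher with PDS, 1 lower, and 15 did not pass, where 5.13% of all tested genes were called higher and 2.96% lower. Cd44, the hyaluronan receptor, averaged 844 ± 11.2 CPM with PDS and 569 ± 12.6 CPM in PDS controls (log2 0.57 ± 0.06, adjusted p = 7e-06). Vcan, versican, rose by 0.63 ± 0.18 (adjusted p = 0.045), and Thbd, thrombomodulin, had a log2 change of -0.57 ± 0.15 (adjusted p = 0.026).

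Under Phen-DC3 the linkage enzyme B3gat3 rose (154 ± 13.4 CPM with Phen-DC3 and 119 ± 17.6 CPM in Phen-DC3 controls, log2 0.37 ± 0.10, adjusted p = 0.034), 1 of 5 in its list. Of 18 core proteins 1 rose, 4 fell and 13 were not called, where 2.19% of all tested genes were called higher and 5.82% lower, the unstable background given above. Vcan had a log2 change of -0.79 ± 0.18 (adjusted p = 0.023), Tgfbr3, betaglycan, -0.45 ± 0.11 (adjusted p = 0.023), and Sdc1, syndecan, rose by 0.24 ± 0.07 (adjusted p = 0.040). Of 16 heparan sulfate genes 2 fell and 14 were not called (Hs6st2 at -0.41 ± 0.09, adjusted p = 0.015, and Glce, an epimerase, at -0.31 ± 0.09, adjusted p = 0.044). Of 12 breakdown genes 1 fell (Ids, a sulfatase acting on dermatan and heparan sulfate, -0.39 ± 0.10, adjusted p = 0.025). By edgeR 0 donor genes were called (6 at an unadjusted p under 0.05; 2 by DESeq2, 0 by limma voom) and 0 other sulfation genes (1 at an unadjusted p under 0.05; 1 by DESeq2, 0 by limma voom). After the length correction 1 heparan sulfate gene was called, and 0 in the other lists by edgeR.

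Under Braco-19 edgeR called 0 genes of all 6 lists. At an unadjusted p under 0.05 there were 1 linkage, 0 other sulfation, 3 heparan sulfate, 5 donor, 0 breakdown and 2 core protein genes, and DESeq2 and limma voom called 0 in each list.

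Across the 6 groups Xylt1 varied most among the 10, with a range of 2.84 in group means of log2 CPM, wider than that of 96.5% of tested genes, and Chst15 least, with a range of 0.34, wider than that of 8.26%. The 5 genes outside the set whose centred group means lay nearest to those of Xylt1 were Fnbp4, Hipk2, Dysf, Nufip2 and Ylpm1, at root mean square distances of 0.026 to 0.076 on the log2 scale over 6 group means.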

How the data were processed

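Raw gene counts, unnormalised, were deposited together with gene lengths for 18 libraries of 15715121 to 18369443 counts. The submitters' processing notes name CASAVA, HISAT2 and featureCounts 1.5.0-p3; no source used here gives the build, annotation release or strandedness.

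The fit used edgeR 4.0.16 in R 4.3.3: filterByExpr by group (14184 genes), TMM scaling, and 1 robust quasi-likelihood fit with a mean per group over the 18 libraries (12 residual degrees of freedom), tested by two-sided F-tests with Benjamini-Hochberg adjustment over all tested genes (threshold 0.05). Standard errors come from the F statistics. CPM use TMM-scaled totals, and RPKM divide them by the deposited gene length. Alternatives were RLE and upper-quartile scaling, other filters, DESeq2 1.42.0, limma 3.58.1 (voom), a fit of the compared groups alone, a replicate block, a loess correction for gene length (span 0.5), left-out libraries and pooled controls.

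The 10 members, the pathway and marker lists and the tests were chosen with earlier results of these data known. Other pathway genes are named by a rule: up to 3 of each list with the smallest p among those called, per compound, and the 5 genes nearest in pattern to the member with the widest range. No pair of replicate libraries agreed within counting error.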

Additional observations from a re-analysis of the deposited data

Results flagged for a closer look

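The effect of PDS differed from that of another compound for 8 pairings of gene and compound, by the test of the difference itself (edgeR, adjusted over all genes). All 8 share the PDS and PDS control libraries. Against Phen-DC3 these were Chsy1 (0.64 on the log2 scale), Chsy3 (1.30) and Chst11 (0.56). All 3 stayed called under every alternative run for them, with the difference for Chsy3 between 1.22 and 1.36.

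Against Braco-19 they were Chsy1 (0.73), Chsy3 (1.62), Csgalnact2 (0.44), Csgalnact1 (-0.54) and Chpf2 (-0.46). For Csgalnact1 and Chpf2 the call was lost with 4 of the left-out libraries each, with adjusted p up to 0.054 and 0.070. Chsy3 is the gene of the 10 that rose under PDS and fell under Braco-19, each against its own controls. The call under Braco-19 was lost with 4 of the left-out libraries, as given above. The control levels under those effects were 33.2 CPM for PDS and 95.7 CPM for Braco-19, doses are not in the labels, and the part of either in the difference was not tested.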

How the results depend on the processing

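Counts of called members were 4 of 10 for PDS under each alternative except the 9 pooled controls, where edgeR called 0. For Braco-19 (1 called) DESeq2 called 2, a fit of the 6 libraries alone 3, and the 9 pooled controls 0, with 0 to 1 over left-out libraries. For Phen-DC3 (0 called) left-out libraries gave 0 to 1, and for PDS controls against Phen-DC3 controls (0 called) they gave 0 to 3, with 1 by DESeq2. For PDS minus Phen-DC3 effects (3 called) the length correction, with or without the replicate block, gave 6, and left-out libraries 3 to 6. The cause was not tested.

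The replicate block alone kept all counts of called members (Chsy3 under PDS at 1.18, adjusted p = 1.6e-07). Correlations of same-numbered deviations between a compound and its controls were -0.251 to 0.0717. The highest with a library of another number were -0.0297 to 0.186. With deviations from means of 3, such values cannot settle whether replicate numbers pair the libraries. Over all genes the block gave 1029, 734 and 30 calls for PDS, Phen-DC3 and Braco-19, against 1148, 1136 and 39 without it. Over left-out libraries the all-gene counts for differences between effects were 1447 to 4218 (2862 with all libraries) for PDS minus Phen-DC3, 896 to 2353 (1990) for PDS minus Braco-19 and 0 to 15 (7) for Phen-DC3 minus Braco-19. For PDS minus Phen-DC3 effects the all-gene count was 1890 after the length correction, and 1656 with the replicate block added. For PDS the count was 2053 in a fit of its 6 libraries alone and 102 with 9 pooled controls. Upper-quartile scaling moved the median of all genes to 0.11 for Phen-DC3 controls against plain controls, and Chst11 (-0.11) and Chpf2 (-0.17) lost their calls there.

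Some values changed sign, of which only Chpf2 in Phen-DC3 controls and Chsy3 under Braco-19 had been called. With the length correction, with and without the replicate block, they were, under Phen-DC3, Chsy1 at 0.02 and 0.021, Csgalnact2 at 0.043 and Chst15 at 0.063 and 0.061; under Braco-19, Csgalnact1 at 0.009 and 0.01; in PDS controls against plain controls, Chpf2 at 0.515 and 0.513 and Chst15 at 0.079 and 0.08; in Phen-DC3 controls against plain controls, Chpf2 at 0.257 and Chst15 at 0.132 and 0.134; in PDS controls against Phen-DC3 controls, Chsy1 at 0.087 and 0.088; and for PDS minus Phen-DC3 effects, Chpf at -0.02. With 9 pooled controls they were, under PDS, Csgalnact2 at -0.648, Xylt1 at -1.27 and Xylt2 at 0.122; under Phen-DC3, Chpf2 at -0.089 and Csgalnact1 at 0.108; and under Braco-19, Chsy1 at 0.341, Chsy3 at 0.357, Chpf at -0.077, Csgalnact2 at 0.568, Chst15 at 0.068, Xylt1 at 1.00 and Xylt2 at -0.139.

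Over left-out libraries the ranges that crossed 0 were -0.005 to 0.151 (Chpf2) and -0.243 to 0.083 (Chst15) under Phen-DC3, -0.065 to 0.027 (Csgalnact1) under Braco-19, -0.335 to 0.026 (Chst15) in Phen-DC3 controls against plain controls, -0.082 to 0.085 (Chsy1) and -0.424 to 0.101 (Xylt1) in PDS controls against Phen-DC3 controls, -0.056 to 0.04 (Chpf) for PDS minus Braco-19 effects, and -0.115 to 0.196 (Chst15) and -0.25 to 0.079 (Xylt1) for Phen-DC3 minus Braco-19 effects.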
